A study of Mus musculus with 12 samples.

Results

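The MYC network was followed through its 10 transcription factor genes, which were Myc, Mycn, Mycl, Max, Mxd1, Mxd3, Mxd4, Mxi1, Mnt and Mlx. The genes were picked by symbol from the 55471 genes of the deposited table, and the choice was made knowing that Myc stood slightly higher in CBPAA crypts in both p53 states, so CBPAA and CBPWT crypts are set side by side below as a description, with no test. All 10 genes were among the 14610 that passed the filter on low counts. RNA-seq had been performed on colonic crypts of 12 C57BL/6J mice, with 1 library per mouse and 3 mice in each of 4 groups. The mice were described by the study as females of 8 weeks unless stated otherwise. In CBPWTp53-floxed mice, CBP (the acetyltransferase encoded by Crebbp) was wild type and both p53 alleles were floxed but not deleted. CBPAAp53-floxed mice carried knock-in CBP alleles in which a pair of phosphorylated serines was replaced by alanines in every cell of the body, together with the same intact floxed p53. CBPWTp53ΔIEC and CBPAAp53ΔIEC mice had the corresponding CBP alleles and lacked p53 in intestinal epithelial cells, where the Villin promoter drives Cre. The floxed p53 alleles were therefore common to all 4 groups, and the study's methods describe the embryonic stem cells behind the knock-in line both as of a 129 background, with later backcrossing to C57BL/6, and as C57BL/6N. Library totals ran from 11177430 to 18029125 counts.

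MYC proteins cannot bind DNA well on their own. They pair with MAX, and the pair binds the E-box, the hexamer CACGTG, and raises transcription of genes for ribosomes, nucleotides and growth. MXD proteins, MXI1 and MNT compete for the same MAX partner and recruit the SIN3 corepressor to the same sites, while MLX is the MAX-like partner of the nutrient-sensing factors MLXIP and MLXIPL and can also pair with some MXD proteins and MNT. In the intestinal crypt, Myc is a well-known Wnt target that marks the proliferating compartment, and Mxd1 belongs to differentiated cells.

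The E-box that these proteins bind is also present near the start of some of their own genes. RefSeq promoter windows (GRCm38.p6, 250 bases before to 50 after the gene start) were searched for the letters CACGTG, which read the same on both strands. Of the 9 members with a window, all but Myc, 4 held the hexamer (44.4%), against 2187 of 27025 genes with a window (8.09%). The matches are shown because they are the binding letters of the network itself, in 30 bases read 5′ to 3′ on the strand of the gene with the hexamer in capitals.
Max: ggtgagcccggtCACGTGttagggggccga
Mxd4: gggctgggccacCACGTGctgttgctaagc
Mnt: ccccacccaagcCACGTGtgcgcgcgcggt
Mlx: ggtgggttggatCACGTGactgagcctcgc
Mlxipl: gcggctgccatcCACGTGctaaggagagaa
The Max stretch lies at chr12:76962234-76962263 on the minus strand, and its hexamer begins 3 bases before the start. The Mxd4 stretch lies at chr5:34187912-34187941 on the minus strand, 219 bases before the start, and the Mnt stretch at chr11:74830789-74830818 on the plus strand, 123 bases before it. The Mlx stretch lies at chr11:101087238-101087267 on the plus strand, 40 bases before the start. Mlxipl, the MLX partner, had the hexamer in 1 of its 2 windows, at chr5:135089780-135089809 on the plus strand, 98 bases before the start. The windows of Mycn, Mycl, Mxd1, Mxd3 and Mxi1 did not hold these letters, which says nothing of binding elsewhere.

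The labels were checked first on the deleted gene. Trp53, which encodes p53, stood at 24.6, 28.6 and 30.4 TPM (the deposited level of a gene, scaled for its length and for the depth of the library) in the CBPWTp53-floxed mice and at 33.5, 30.8 and 23.3 TPM in the CBPAAp53-floxed mice. It stood at 5.44, 3.26 and 4.15 TPM in the CBPWTp53ΔIEC mice and at 5.05, 4.66 and 6.13 TPM in the CBPAAp53ΔIEC mice, so every p53ΔIEC library lay below every p53-floxed library. Averaged over both CBP genotypes, Trp53 fell by 2.61 on the log2 scale (SE 0.16, adjusted p = 5.6e-06, edgeR's quasi-likelihood test with Benjamini-Hochberg adjustment, used for every adjusted p here unless another tool is named). Among 6 further genes kept as a check, the p53 targets Eda2r (-5.14), Phlda3 (-3.80) and Ccng1 (-0.57) fell as well, and Cdkn1a, Mdm2 and Crebbp did not pass the test. Crebbp RNA averaged 9.54, 8.02, 7.75 and 9.30 TPM in CBPWTp53-floxed, CBPAAp53-floxed, CBPWTp53ΔIEC and CBPAAp53ΔIEC crypts.

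The crypts were epithelial by their markers. The 7 epithelial markers, led by Krt8 (a mean of 5219 TPM), were present in every library, whereas 10 leukocyte markers summed to at most 6.62 TPM, 11 stromal markers to at most 8.36 TPM and 6 endothelial markers to at most 2.14 TPM, with Cdh5, which defines endothelium, at 0 in every library. Lyz2, Pdgfrb and Pecam1 were the most abundant genes of those 3 lists, at means of 1.04, 4.04 and 0.81 TPM. Goblet cell, colonocyte, enteroendocrine and tuft cell lists were led by Zg16 (5964 TPM), Car1 (12541 TPM), Chgb (232 TPM) and Sh2d6 (20.7 TPM). Of all these marker genes, edgeR called 3 in the averaged comparison of p53ΔIEC with p53-floxed crypts, the colonocyte carbonic anhydrases Car1 (0.62 on the log2 scale, SE 0.15, adjusted p = 0.0347) and Car4 (-0.50, SE 0.10, adjusted p = 0.0193) and the pericyte receptor gene Pdgfrb (-0.86, SE 0.15, adjusted p = 0.0117). These were 3 of the 47 marker genes tested, in a fit that called 4.93% of all genes.

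Some libraries stood apart from the rest before any comparison was made. Markers of Paneth cells, which belong to the small intestine and are normally missing from colon, summed to 19072 TPM in CBPWTp53ΔIEC replicate 1, 4564 TPM in CBPAAp53ΔIEC replicate 3, 2370 TPM in CBPAAp53ΔIEC replicate 1 and 958 TPM in CBPAAp53-floxed replicate 2, against 4.00 to 54.4 TPM in the other 8. All 6 Paneth markers reached 10 counts in those 4 libraries, and Defa24, a defensin and the most abundant of them, was listed at 0 in all 3 CBPWTp53-floxed libraries. A list of 11 small intestine genes, led by Fabp2, summed to 6256 TPM in CBPWTp53ΔIEC replicate 1, 3468 TPM in CBPAAp53ΔIEC replicate 3 and 3104 TPM in CBPAAp53-floxed replicate 2, and to 699 to 1654 TPM elsewhere. The fits were repeated without the 2 highest libraries (leaving 2 mice in each p53ΔIEC group) and without all 4 (leaving a single CBPAAp53ΔIEC mouse, assumed to vary like the other groups), and values from these fits are printed beside many of the results below. In the averaged p53 comparison Myc, Mycn, Mycl, Mxd4, Mnt and Mlx were called in neither of them. Of the 47 genes on the epithelial, leukocyte, stromal, endothelial, goblet, colonocyte, enteroendocrine and tuft cell lists, 6 were called higher and 6 lower without the 2 libraries, and 7 higher and 9 lower without all 4, in fits that called 23.3% and 25% of all genes. The part of these libraries in the results below was not tested. In bulk crypt RNA, fewer cells of a type and less RNA per cell cannot be told apart.

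Mlx, Mxd1, Max and Mxd4 were all more abundant than Myc at the level of RNA. Mlx was the most abundant member (179 TPM over all 12 libraries), followed by Mxd1 (161 TPM), Max (103 TPM), Mxd4 (54.2 TPM), Myc (37.9 TPM), Mxi1 (31.6 TPM), Mycl (19.4 TPM), Mnt (18.3 TPM), Mxd3 (3.42 TPM) and Mycn (2.25 TPM). Several neighbours in this order did not keep their places. Mlx exceeded Mxd1 in 9 of 12 libraries, Myc exceeded Mxi1 in 10, Mycl exceeded Mnt in 8 and Mxd3 exceeded Mycn in 5, whereas Mxd1 above Max, Max above Mxd4, Mxd4 above Myc, Mxi1 above Mycl and Mnt above Mxd3 held in all 12.

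**Figure D1:**
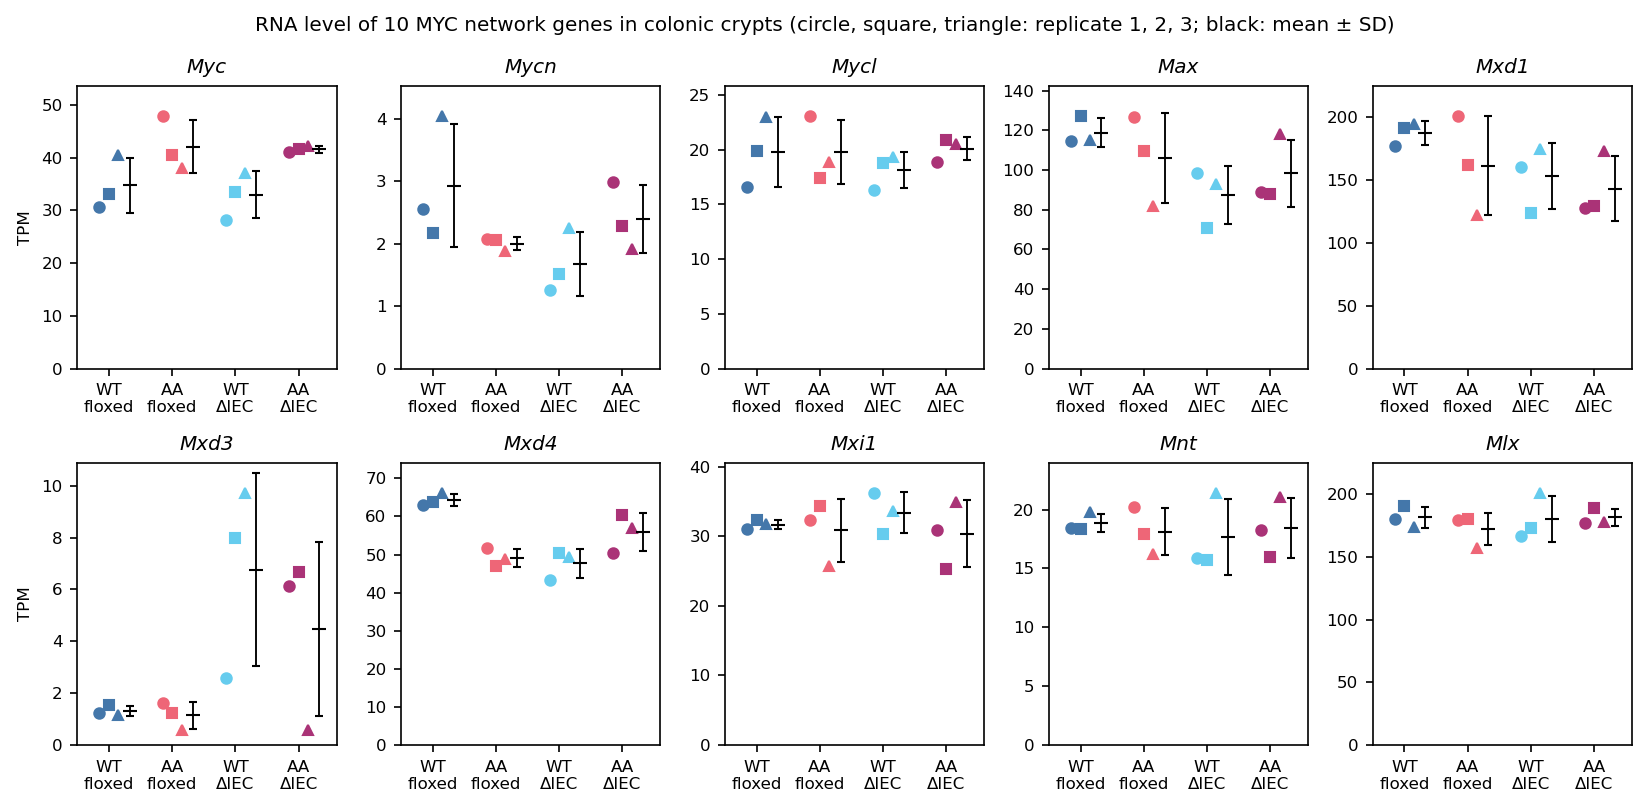
TPM of each of the 10 MYC network genes (vertical axes, from 0) in the 4 groups (horizontal axes, WT and AA for CBPWT and CBPAA), with 1 point per mouse and the mean ± SD in black. Mxd3 is the gene whose p53ΔIEC points spread away from the p53-floxed points, reaching 9.72 TPM in CBPWTp53ΔIEC crypts while CBPAAp53ΔIEC replicate 3 stays at 0.594 TPM.

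Myc, the MYC family member that drives crypt growth, lies on chromosome 15 from 61985391 to 61990374 (GRCm38, plus strand). It stood at 30.6, 33.1 and 40.5 TPM in CBPWTp53-floxed crypts, 47.9, 40.4 and 38.1 TPM in CBPAAp53-floxed crypts, 28.3, 33.6 and 37.1 TPM in CBPWTp53ΔIEC crypts and 41.0, 41.6 and 42.2 TPM in CBPAAp53ΔIEC crypts. The CBPAA values thus lay above the CBPWT values without overlap in the p53ΔIEC mice and overlapped them in the p53-floxed mice. This is the pattern by which the genes were chosen, and it is given without a test: the log2 difference of CBPAA over CBPWT was 0.40 (SE 0.10) with p53 floxed and 0.30 (SE 0.10) with p53 deleted. Their average was 0.35, a 1.27-fold higher level. It ranged from 0.32 to 0.40 when each mouse was left out in turn, which adds no support because the choice of genes used these values.

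Myc was not called on deletion of p53, a comparison that the choice of genes did not use. Averaged over both CBP genotypes, the log2 fold change was -0.09 (95% interval -0.24 to 0.05, adjusted p = 0.451). It was -0.04 (-0.25 to 0.17) in CBPWT crypts and -0.14 (-0.35 to 0.06) in CBPAA crypts. The difference between these values is also the difference between the CBPAA-over-CBPWT values by which the genes were chosen, so it was not tested for Myc.

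Mycl, the family member first found in lung cancer, and Mycn, best known from neuroblastoma, completed the MYC side. Mycl spanned 16.3 to 23.0 TPM over the 12 libraries, and its averaged p53 fold change was -0.10 on the log2 scale (-0.28 to 0.09, adjusted p = 0.548). Mycn was the least abundant member, at 2.56, 2.18 and 4.05 TPM in CBPWTp53-floxed crypts, 2.07, 2.06 and 1.88 TPM in CBPAAp53-floxed crypts, 1.26, 1.52 and 2.25 TPM in CBPWTp53ΔIEC crypts and 2.99, 2.28 and 1.92 TPM in CBPAAp53ΔIEC crypts. The groups overlapped, apart from CBPAAp53-floxed replicates lying below all 3 CBPWTp53-floxed ones. In CBPWT crypts the log2 fold change of Mycn on p53 deletion was -0.78 (-1.35 to -0.22) with an adjusted p of 0.111, and in CBPAA crypts it was 0.12 (-0.44 to 0.68). The difference between these values, 0.90, did not pass the test of the interaction, which asks whether p53 deletion acted differently in the CBP genotypes (adjusted p = 0.482), and Mycn rested on 21 to 89 counts per library.

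Max, the shared partner of the network, stood at 114.4, 127.1 and 115.1 TPM in CBPWTp53-floxed crypts, 126.9, 109.6 and 81.7 TPM in CBPAAp53-floxed crypts, 98.4, 70.6 and 93.0 TPM in CBPWTp53ΔIEC crypts and 89.1, 88.1 and 118 TPM in CBPAAp53ΔIEC crypts. All CBPWTp53ΔIEC libraries lay below the CBPWTp53-floxed ones, and the CBPAA groups overlapped. The averaged p53 fold change was -0.30 on the log2 scale (SE 0.13, -0.59 to -0.01), and with an adjusted p of 0.206 it was not called. Without the 2 libraries highest in Paneth cell markers it was -0.52 (SE 0.09, adjusted p = 0.000917), and without all 4 it was -0.50 (SE 0.09, adjusted p = 0.0014), in fits that called 10.5% and 11.7% of all genes lower. The 2 libraries were also the highest in Max of their groups (98.4 and 118 TPM). Leaving them out lowers its p53ΔIEC means by construction, so these calls of Max add no support. The call on Max turned on the libraries rich in Paneth cell markers, whose part in the result was not tested.

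Of the 10 members, 1 was called in the averaged comparison of p53ΔIEC with p53-floxed crypts at an adjusted p under 0.05, beside 4.93% of all genes tested. That gene was Mxd3, the MXD family member that is expressed in cycling cells, in S phase. It lies on chromosome 13 from 55325168 to 55329823 (minus strand). Its level was 1.25, 1.55 and 1.14 TPM in CBPWTp53-floxed crypts, 1.61, 1.24 and 0.571 TPM in CBPAAp53-floxed crypts, 2.60, 7.97 and 9.72 TPM in CBPWTp53ΔIEC crypts and 6.11, 6.66 and 0.594 TPM in CBPAAp53ΔIEC crypts. Of the p53ΔIEC libraries, 5 of 6 lay above every p53-floxed library, and CBPAAp53ΔIEC replicate 3 lay among the lowest.

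Mxd3 rose 4.21-fold on p53 deletion (log2 2.07, SE 0.47, 95% interval 1.04 to 3.11, adjusted p = 0.0307). The size of the difference was stable and its call was not: the log2 fold change stayed between 1.87 and 2.33 when each library was left out in turn, while the adjusted p rose above 0.05 in 10 of the 12 cases, the exceptions being CBPWTp53ΔIEC replicate 1 and CBPAAp53ΔIEC replicate 3. With DESeq2, which called 8.59% of all genes, the call stood (adjusted p = 0.000139), and with a replicate block (adjusted p = 0.0532) or no filter on low counts (adjusted p = 0.105) it was lost. Without these 2 libraries, which are highest in Paneth cell markers and also the lowest of the p53ΔIEC mice in Mxd3, the rise was 5.60-fold (log2 2.49, SE 0.19, adjusted p = 1.32e-06), in a fit that called 23.3% of all genes. Without all 4 marker-bearing libraries it was 5.91-fold, in a fit that called 25% of all genes.

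Taken by CBP genotype, the log2 fold change of Mxd3 was 2.33 (0.88 to 3.78, adjusted p = 0.0757) in CBPWT crypts and 1.82 (0.34 to 3.30, adjusted p = 0.348) in CBPAA crypts. Neither was called on all 12 libraries, and the interaction of -0.51 had a wide interval (-2.59 to 1.57). On all 12 libraries no member was called by edgeR in either genotype, nor any of the 9 members other than Myc in the interaction, where 3.72%, 0.0274% and 0.00684% of all genes were called. At an unadjusted p under 0.05 the members numbered 3, 1 and 2 in those comparisons, beside 20.9%, 12.6% and 10.3% of all genes, and DESeq2 called 2 in CBPWT crypts (Mxd3 and Mxd4) and none in the others, where it called 8.15%, 0.657% and 0.229% of all genes.

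Other choices of libraries did give calls within a genotype. In CBPWT crypts edgeR called Mxd3 (adjusted p = 0.0164) and Mxd4 in the fit on those 2 groups alone, which called 6.78% of all genes. It called Mxd3 (adjusted p = 0.0416), Max and Mxd4 without CBPWTp53ΔIEC replicate 1, beside 6.96% of all genes, and Mxd3 (adjusted p = 0.00342) without CBPAAp53ΔIEC replicate 3, beside 6.16%. In CBPAA crypts it called Mxd3 without CBPAAp53ΔIEC replicate 3 (log2 2.33, adjusted p = 0.0157), beside 2.21% of all genes. Mxd3 was called in both genotypes without the 2 libraries highest in Paneth cell markers (2.64 in CBPWT and 2.33 in CBPAA crypts), together with Max and Mxd4 in CBPWT and Mxd1 in CBPAA crypts, in fits that called 12.3% and 10.4% of all genes. Those 2 libraries are also the p53ΔIEC mice lowest in Mxd3 (2.60 and 0.594 TPM). Leaving them out raises its p53ΔIEC means by construction, so these calls of Mxd3 add no support. They were also the highest of their groups in Max (98.4 and 118 TPM). CBPAAp53ΔIEC replicate 3 was likewise the highest of its group in Mxd1 (173 TPM). Leaving them out lowers those means by construction, so the calls of Max and Mxd1 in that fit add no support either. Without all 4 libraries Mxd3 was again called in both (2.64 and 2.48), together with Max, Mxd1 and Mxd4 in CBPWT crypts, in fits that called 21.2% and 8.32% of all genes.

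**Figure D2:**
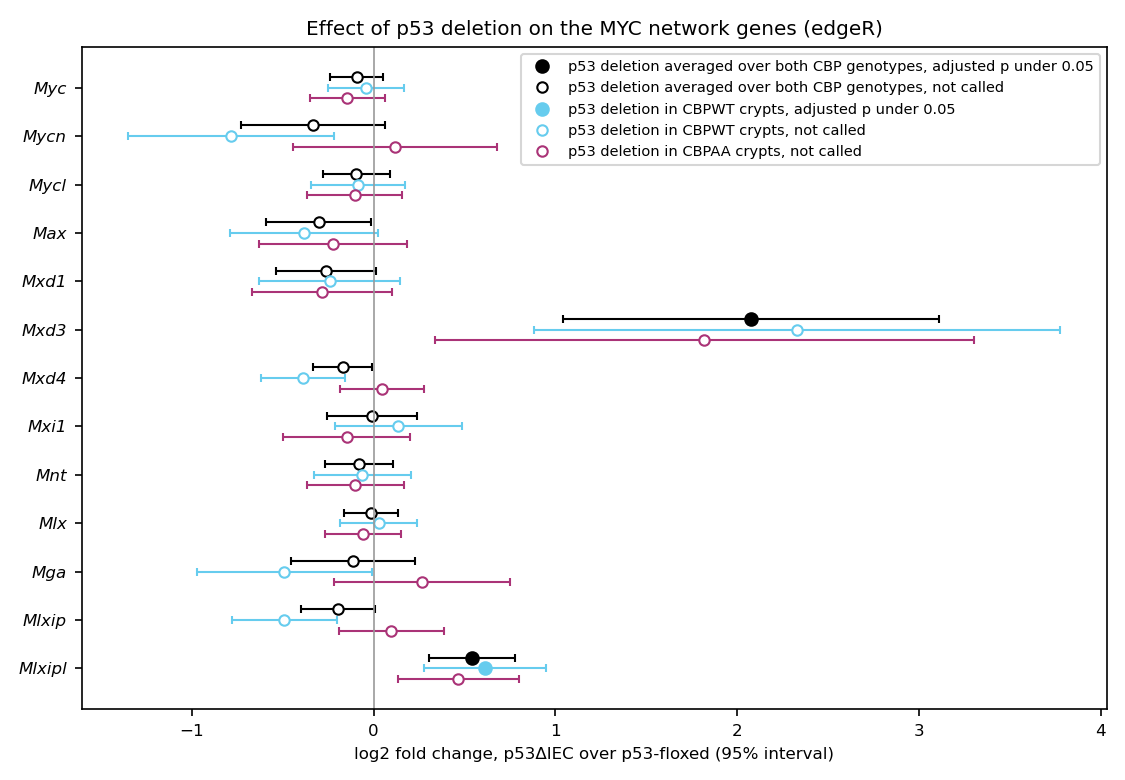
Log2 fold change of p53ΔIEC over p53-floxed crypts (horizontal axis, bars for the 95% interval) for the 10 members and the partners Mga, Mlxip and Mlxipl, averaged over both CBP genotypes (black), in CBPWT crypts (light blue) and in CBPAA crypts (purple). Filled points passed an adjusted p of 0.05, namely the averaged effects of Mxd3 (2.07) and Mlxipl (0.54) and the CBPWT effect of Mlxipl (0.61).

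The level of Mxd3 went with genes of the cell cycle from library to library. A list of 21 proliferation genes summed to 1029, 960, 818, 785 and 456 TPM in CBPWTp53ΔIEC replicates 3 and 2, CBPAAp53ΔIEC replicates 1 and 2 and CBPWTp53ΔIEC replicate 1, and these 5 libraries were also the 5 highest in Mxd3. In CBPAAp53ΔIEC replicate 3 the sum was 325 TPM, within the range of 274 to 399 TPM of the p53-floxed libraries. All 21 genes of the list rose on p53 deletion in the averaged comparison (median log2 fold change 1.45, against 0.0084 over all genes tested), among them the ribonucleotide reductase subunit Rrm2 (1.19, SE 0.19, adjusted p = 0.0108), the replication helicase subunit Mcm6 (0.78, SE 0.13), the mitotic kinase Cdk1 (1.38, SE 0.22) and the most abundant gene, Pcna (0.55, SE 0.11). Without the 2 libraries highest in Paneth cell markers all 21 were called higher, with a median of 1.72. That fit called 12.8% of all genes higher, beside 3.61% on all 12 libraries. It left out the 2 p53ΔIEC mice with the lowest sums (456 and 325 TPM). This raises the p53ΔIEC side by construction, so these calls add no support. The genes whose log2 CPM followed Mxd3 most closely over the 12 libraries were Aaas (Pearson r = 0.989), Cdca8 (0.979), a mitotic regulator, and Uros (0.969). These correlations share the libraries, their depth and the split between p53 states, and they are descriptions. Whether Mxd3 moved apart from the number of cycling cells was not tested.

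**Figure D3:**
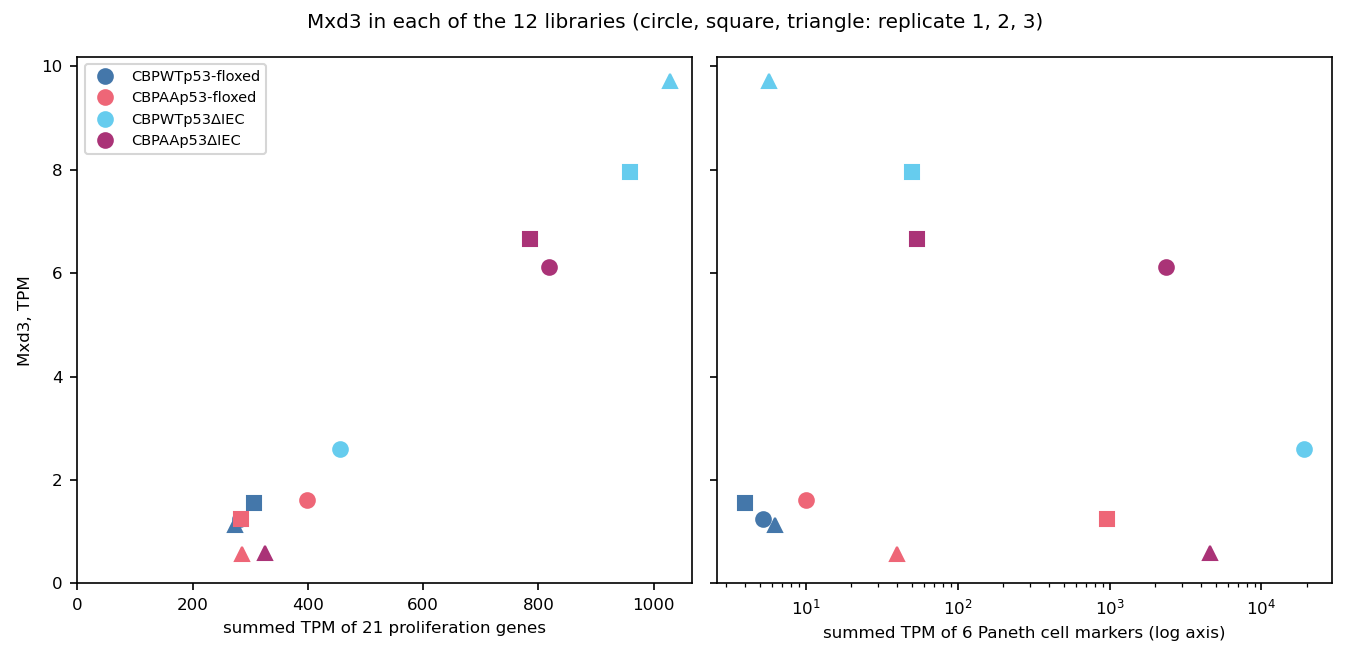
Mxd3 in TPM (vertical axes) in each of the 12 libraries against the summed TPM of 21 proliferation genes (left) and of 6 Paneth cell markers (right, log axis), coloured by group. The 5 libraries highest in Mxd3 are the 5 highest in proliferation genes, and the p53ΔIEC libraries with the most Paneth cell RNA (19072 and 4564 TPM) are the 2 lowest of the p53ΔIEC libraries in Mxd3.

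Mxd3 shares 105 bases with Prelid1 on the opposite strand, and the strand setting of the counting is not given in the sources used here. Prelid1 was far more abundant, at 233, 254, 269 and 255 TPM on average in CBPWTp53-floxed, CBPAAp53-floxed, CBPWTp53ΔIEC and CBPAAp53ΔIEC crypts. Reads of the 2 genes in the shared stretch may have been assigned to either. Mxd3 itself rested on 7 to 118 counts per library.

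Mxd4, another MXD repressor, was highest in CBPWTp53-floxed crypts. It stood at 62.9, 63.8 and 66.2 TPM in CBPWTp53-floxed crypts, 51.7, 47.0 and 48.8 TPM in CBPAAp53-floxed crypts, 43.4, 50.3 and 49.3 TPM in CBPWTp53ΔIEC crypts and 50.4, 60.3 and 56.8 TPM in CBPAAp53ΔIEC crypts. The 3 CBPWTp53-floxed libraries were thus the highest of the 12, and each of the other groups lay below them. On p53 deletion the log2 fold change was -0.39 (SE 0.11, -0.62 to -0.16, adjusted p = 0.0613) in CBPWT crypts and 0.05 (-0.18 to 0.28, adjusted p = 0.862) in CBPAA crypts. The interaction was 0.44 (0.11 to 0.77) and did not pass the test over all genes (adjusted p = 0.482). In CBPWT crypts the fall of Mxd4 passed the test without the 2 libraries highest in Paneth cell markers (-0.46, SE 0.11, adjusted p = 0.0157), where 4.46% of all genes were called lower, and in 6 of its 19 alternatives in all. As a description, the log2 difference of CBPAA over CBPWT was -0.26 with p53 floxed and 0.18 with p53 deleted. The genes most alike to Mxd4 over the 12 libraries were C130013H08Rik (Pearson r = 0.935), the cap-binding protein gene Eif4e3 (0.907) and the prostaglandin receptor gene Ptger3 (0.906).

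Mxd1, the MXD member of differentiated cells and the most abundant repressor of the network, stood at 177, 191 and 194 TPM in CBPWTp53-floxed crypts, 201, 162 and 122 TPM in CBPAAp53-floxed crypts, 160, 124 and 174 TPM in CBPWTp53ΔIEC crypts and 128, 129 and 173 TPM in CBPAAp53ΔIEC crypts. The CBPWTp53ΔIEC values lay below the CBPWTp53-floxed values, and the CBPAA groups overlapped. Its averaged p53 fold change was -0.26 (-0.54 to 0.01, adjusted p = 0.244). It became -0.45 (SE 0.10, adjusted p = 0.00486) without the 2 libraries highest in Paneth cell markers and -0.43 (SE 0.11) without all 4. The 2 libraries include the CBPAAp53ΔIEC mouse highest in Mxd1 (173 TPM), and leaving it out lowers that mean by construction. Mxi1, a repressor that also pairs with MAX, ranged from 25.3 to 36.3 TPM and had an averaged fold change of -0.01 (-0.25 to 0.24). It was -0.18 (adjusted p = 0.123) without those 2 libraries and -0.21 (adjusted p = 0.0301) without all 4. Mnt, the widely expressed antagonist of MYC, ranged from 15.7 to 21.4 TPM with a fold change of -0.08 (-0.27 to 0.11), which was -0.18 (adjusted p = 0.129) without the 2 libraries and -0.22 (adjusted p = 0.0748) without all 4.

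The summed TPM of the repressor side (Mxd1, Mxd3, Mxd4, Mxi1 and Mnt) was set against that of the MYC side (Myc, Mycn and Mycl) in each library, as a description that rests largely on Mxd1 and Myc. The ratio was 5.85, 5.57 and 4.64 in CBPWTp53-floxed crypts, 4.20, 4.37 and 3.62 in CBPAAp53-floxed crypts, 5.64, 4.23 and 4.92 in CBPWTp53ΔIEC crypts and 3.71, 3.67 and 4.42 in CBPAAp53ΔIEC crypts. It was lower in CBPAA than in CBPWT crypts without overlap while p53 was floxed, and the groups overlapped once p53 was deleted. Group means were 5.35 ± 0.632, 4.07 ± 0.392, 4.93 ± 0.705 and 3.93 ± 0.425 (SD, n = 3 each). Because Myc entered the ratio and had been chosen for its CBPAA level, no test was made.

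Mlx ranged from 157 to 201 TPM, and its averaged p53 fold change was -0.01 (-0.16 to 0.13, adjusted p = 0.926). It shares 385 bases with Psmc3ip on the opposite strand. Mlxipl (also called ChREBP), the MLX partner that senses glucose, lies on chromosome 5 from 135089890 to 135138382 (plus strand). It stood at 12.9, 12.4 and 14.2 TPM in CBPWTp53-floxed crypts, 17.6, 13.4 and 10.3 TPM in CBPAAp53-floxed crypts, 14.9, 20.1 and 24.8 TPM in CBPWTp53ΔIEC crypts and 25.0, 21.3 and 15.7 TPM in CBPAAp53ΔIEC crypts. The CBPWTp53ΔIEC libraries all lay above the CBPWTp53-floxed ones, and the CBPAA groups overlapped. Mlxipl rose 1.45-fold in the averaged comparison (log2 0.54, SE 0.11, adjusted p = 0.0175) and 1.53-fold in CBPWT crypts (adjusted p = 0.0463). In CBPAA crypts the log2 fold change was 0.47 (0.13 to 0.80, adjusted p = 0.322). The averaged call was lost in 6 of the 12 cases with 1 library left out, namely without any of the 3 CBPWTp53-floxed mice, CBPAAp53-floxed replicate 3, CBPWTp53ΔIEC replicate 3 or CBPAAp53ΔIEC replicate 1 (adjusted p up to 0.0573, log2 0.47 to 0.61 over the 12). The call in CBPWT crypts was lost in 7 of the 12, without any of the 3 CBPWTp53-floxed mice, CBPAAp53-floxed replicate 3, CBPWTp53ΔIEC replicate 2 or 3 or CBPAAp53ΔIEC replicate 2 (adjusted p up to 0.177), and with a replicate block (adjusted p = 0.078). The 2 libraries highest in Paneth cell markers were the lowest in Mlxipl of their groups (14.9 and 15.7 TPM). Leaving them out raises its p53ΔIEC means by construction, so calls made without them add no support. Without them the averaged rise was 1.56-fold (adjusted p = 0.000346). In that fit, which called 10.4% of all genes in CBPAA crypts, the value there was 0.61 (adjusted p = 0.0119). That value was called in 2 of its 19 alternatives and was called neither without all 4 libraries (0.49, adjusted p = 0.0759) nor by DESeq2 (adjusted p = 0.182).

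Mlxip, the other MLX partner, ranged from 28.7 to 65.8 TPM and was -0.49 on the log2 scale on p53 deletion in CBPWT crypts (-0.78 to -0.20, adjusted p = 0.0603), against 0.10 in CBPAA crypts. Mga, a MAX-binding repressor scaffold, ranged from 4.38 to 13.2 TPM, with -0.49 in CBPWT and 0.27 in CBPAA crypts. On all 12 libraries edgeR called neither in these comparisons, nor in the interaction (adjusted p = 0.482 for both). The fall of Mlxip in CBPWT crypts was called in 6 of 19 alternatives, DESeq2 (adjusted p = 0.0116) and the fit without the 4 Paneth-rich libraries (-0.39, adjusted p = 0.00754) among them, and its averaged change was called in 1 of 18, without those 4 libraries (-0.23, adjusted p = 0.0424).

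Of 14 known targets of the MLX partners none was called by edgeR in the averaged comparison, where 6 had an unadjusted p under 0.05, as had 21.9% of all genes, and DESeq2 called 2 lower, beside 2.78% of all genes. Of the 14, 3 were called higher and 3 lower without the 2 libraries highest in Paneth cell markers, where 12.8% of all genes were called higher and 10.5% lower. Leaving out all 4 gave 5 higher and 3 lower, where the shares of all genes were 13.3% and 11.7%. Txnip, the thioredoxin-binding regulator of glucose uptake and the most abundant of them at 1031 TPM, was at -0.40 (SE 0.12, adjusted p = 0.0665), and its relative Arrdc4 was at -0.37 (SE 0.11, adjusted p = 0.0677). The list's median was 0.18, with 9 of 14 above 0.

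Genes that work with the network were counted on lists, in the averaged p53 comparison, where 3.61% of all genes were called higher and 1.32% lower. Of 13 genes that control the turnover of MYC protein, 3 rose. They were the mitotic kinase Aurka (1.81, SE 0.32, adjusted p = 0.0144), which shields MYC proteins from degradation, the ubiquitin ligase subunit Skp2 (1.10, SE 0.22, adjusted p = 0.0175) and the phosphatase inhibitor Cip2a (1.31, SE 0.30, adjusted p = 0.0305). All 3 are also known as genes of cycling cells. The most abundant gene of the list, the ubiquitin ligase Stub1, was at 0.07, and the list's median was 0.09.

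Of 15 MYC cofactors, 2 rose, the helicase subunit Ruvbl2 (0.39, SE 0.09, adjusted p = 0.0282) and Actl6a (0.42, SE 0.10, adjusted p = 0.0309), a chromatin remodelling subunit. The most abundant cofactor, Hcfc1, was at 0.21 (adjusted p = 0.417), and the list's median was 0.14. Of the SIN3 corepressor, which the MXD proteins and MNT recruit, 14 of 15 genes were tested and 1 rose, the histone-binding subunit Rbbp7 (0.28, SE 0.06, adjusted p = 0.027), which was also the most abundant. The list's median was 0.08.

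Known MYC targets were counted on 3 lists in the same comparison, where an unadjusted p under 0.05 was found for 15 of 32 ribosome genes, 10 of 19 nucleotide and polyamine genes and 6 of 22 growth genes, and for 21.9% of all genes. Of 32 genes for ribosome biogenesis, 29 had a log2 fold change above 0, as had 51.6% of all genes tested, with a median of 0.19, and 1 was called, Bop1 (0.28, SE 0.08, adjusted p = 0.0489), a factor of large subunit assembly. Npm1, the nucleolar chaperone and the most abundant of them, was at -0.26 (adjusted p = 0.111). Of 19 genes for nucleotide and polyamine synthesis, 2 rose, the nucleoside diphosphate kinase Nme1 (0.57, SE 0.14, adjusted p = 0.0366) and the mitochondrial serine enzyme Shmt2 (0.41, SE 0.10, adjusted p = 0.0284), and the purine enzyme Paics fell (-0.56, SE 0.10, adjusted p = 0.0143). The list's median was 0.15, and Odc1, which makes polyamines and was the most abundant, was at 0.27 (adjusted p = 0.166). Of 22 targets in metabolism and growth 1 rose, the mitochondrial chaperonin Hspd1 (0.29, SE 0.08, adjusted p = 0.0489), while the most abundant, the lactate dehydrogenase Ldha, was at 0.10, and the median was 0.10.

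Without the 2 libraries highest in Paneth cell markers, the called genes of these target lists numbered 11 higher and 2 lower of 32 for ribosomes, 8 higher and 1 lower of 19 for nucleotides and polyamines, and 5 higher and 2 lower of 22 for growth, in a fit that called 12.8% of all genes higher and 10.5% lower. The medians were then 0.19, 0.24 and 0.10. The fit without all 4 libraries left a single CBPAAp53ΔIEC mouse, so its counts for these lists are left out. In the fit without 2 libraries 4 turnover genes were called higher and 1 lower, 3 cofactors and 3 SIN3 genes were called higher, and 2 of the 6 genes that MYC represses were called lower. Promoter windows with the E-box letters were found for 6 of 27 ribosome genes (22.2%), 4 of 18 nucleotide genes (22.2%), 7 of 18 growth genes (38.9%) and 0 of 17 proliferation genes, against 8.09% of all genes with a window. Short lists that are not of MYC targets reached such shares as well, with 2 of 7 genes of the p53 check (28.6%), 1 of 4 Paneth cell markers (25.0%) and 2 of 3 colon identity genes (66.7%).

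Genes that MYC is known to repress and Wnt and stem cell genes of the crypt gave 1 call between them on all 12 libraries. Of 6 repressed genes, 1 fell, Ndrg2 (-0.34, SE 0.08, adjusted p = 0.0234), a differentiation gene, and the most abundant, the cell cycle inhibitor Cdkn1a, was at -0.12 (adjusted p = 0.669). Of 17 Wnt and stem cell genes tested, from a list of 18, none was called by edgeR or by DESeq2, and 3 had an unadjusted p under 0.05 in edgeR, beside 21.9% of all genes. EdgeR called 4 of the 17 higher and 0 lower without the 2 libraries highest in Paneth cell markers, and without all 4 it called 4 higher and 2 lower, in fits that called 12.8% and 13.3% of all genes higher. Notum, a secreted Wnt inhibitor, had a log2 fold change of 1.08 (SE 0.45, adjusted p = 0.184) at a mean of 0.52 TPM, the Wnt target Axin2 was at 0.28 (SE 0.12, adjusted p = 0.199), and Ctnnb1, which encodes β-catenin and was the most abundant, was at -0.09. The list's median was 0.01.

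**Figure D4:**
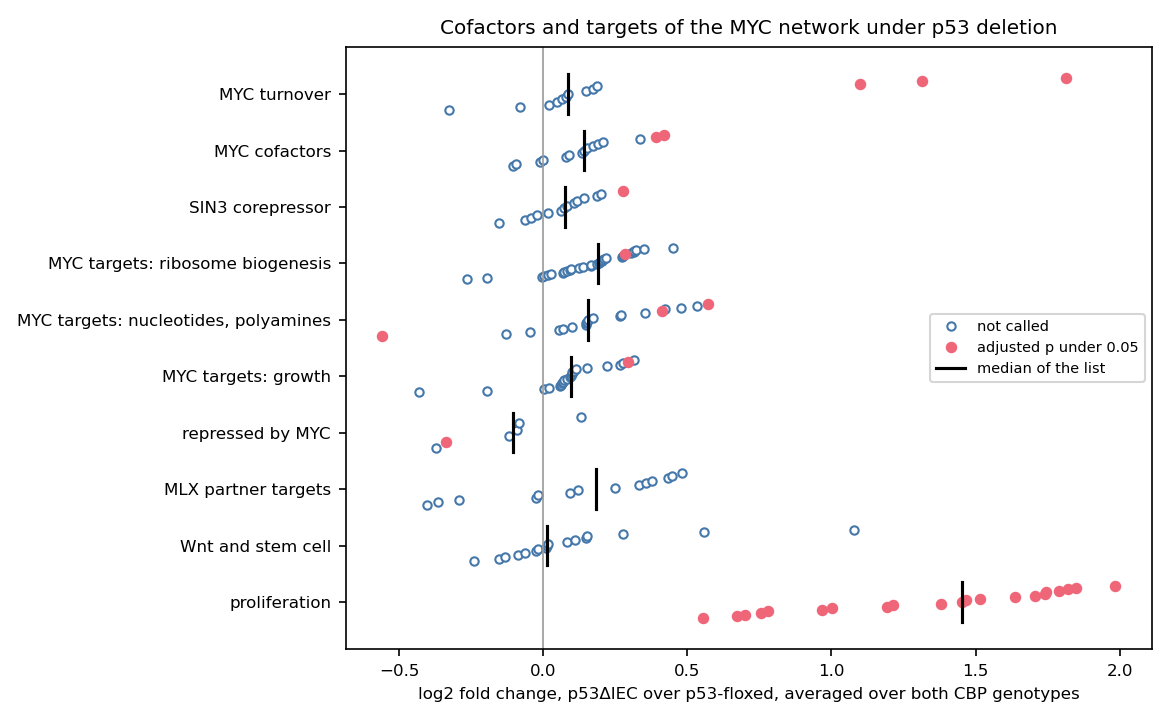
Log2 fold change of p53ΔIEC over p53-floxed crypts, averaged over both CBP genotypes (horizontal axis), with 1 point per gene of each list, red where the adjusted p was under 0.05, and the median of each list as a black bar. All 21 proliferation genes lie to the right of 0 with a median of 1.45, while the medians of the MYC target lists lie between 0.10 and 0.19.

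The target lists were also counted in each CBP genotype alone, on all 12 libraries. Over all genes, 2.7% were called higher and 1.02% lower in CBPWT crypts. In CBPWT crypts p53 deletion raised 2 ribosome genes, 0 nucleotide genes and 2 growth genes, lowered Paics (-0.74, adjusted p = 0.0289), and raised 19 of 21 proliferation genes (median 1.72). An unadjusted p under 0.05 was found there for 12 of 32 ribosome, 11 of 19 nucleotide and 10 of 22 growth genes, beside 20.9% of all genes. The CBPWT calls hung on single libraries. Over all genes, 395 were called higher on all 12 libraries, and 0 without CBPWTp53-floxed replicate 2 or without replicate 3 of that group. With a replicate block 24 were called higher, and without CBPWTp53ΔIEC replicate 1 the number was 745. In CBPAA crypts edgeR called 0.0274% of all genes, all of them lower, and none of these 4 lists. An unadjusted p under 0.05 was found there for 2 ribosome, 3 nucleotide, 3 growth and 16 proliferation genes, beside 12.6% of all genes, and all 21 proliferation genes had a log2 fold change above 0 (median 1.18). Without the 2 libraries highest in Paneth cell markers, the calls in CBPWT crypts were 6 ribosome genes higher, 10 nucleotide genes higher and 1 lower and 5 growth genes higher, and in CBPAA crypts they were 2 ribosome genes higher, 2 nucleotide genes higher and 1 lower and 1 growth gene higher and 2 lower. All 21 proliferation genes were called higher in both genotypes in that fit, where 12.3% and 10.4% of all genes were called. The fit left out the 2 p53ΔIEC mice lowest in proliferation genes, so these calls add no support. A median of 0.22 for ribosome genes in CBPWT crypts stood beside 0.08 in CBPAA crypts, and the difference between genotypes was not tested for the list. The 2 comparisons used separate mice, and CBPAAp53ΔIEC replicate 3, which resembled the p53-floxed libraries in Mxd3 and in proliferation genes, is 1 of the 3 mice in the second.

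The genes whose log2 CPM was most like that of Myc over the 12 libraries were the small nucleolar RNA host gene Snhg17 (Pearson r = 0.944), Clec16a (0.876), Smarcd1 (0.871), a chromatin remodelling subunit, Rusc2 (0.854) and the co-chaperone gene Bag2 (0.832). Snhg17 stood at 7.18, 7.19 and 8.71 TPM in CBPWTp53-floxed crypts, 10.2, 8.74 and 7.73 TPM in CBPAAp53-floxed crypts, 6.86, 7.39 and 7.72 TPM in CBPWTp53ΔIEC crypts and 8.87, 8.81 and 9.11 TPM in CBPAAp53ΔIEC crypts. Like Myc, it lay higher in CBPAAp53ΔIEC than in CBPWTp53ΔIEC libraries without overlap, a description over libraries that share the groups by which Myc was chosen. Clec16a separated by CBP genotype in both p53 states. Its lowest CBPAA value was 11.0 TPM (CBPAAp53-floxed replicate 3) and its highest CBPWT value 8.04 TPM (CBPWTp53-floxed replicate 3). Whether its likeness to Myc goes beyond the CBP genotype was not tested.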

How the data were processed

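RNA-seq libraries of colonic crypts from 12 mice (TruSeq stranded mRNA kit) were analysed from 1 deposited table. The paper's methods instead name a TruSeq RNA Sample Preparation Kit and do not call it stranded. The authors had counted reads per gene and deposited these counts with TPM values. Their processing notes name fastp 0.20.0, HISAT2 2.1.0, SAMtools 1.9, Subread 2.0.1 (featureCounts) and GRCm38, and the counting's strand setting is not given in the sources used here. Columns of the authors' own log2 fold changes and p-values were not used. Counts were fitted with edgeR 4.0.16 (robust quasi-likelihood, TMM scaling, genes kept by filterByExpr at a minimum of 10) on all 12 libraries with 4 groups, and p-values were adjusted over 14610 genes. Deposited TPM gave levels. Each mouse is 1 sample.

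The members and gene lists were chosen with earlier results of these data known. Lists covered MYC turnover, cofactors, SIN3, MYC and MLX-partner targets, Wnt and stem cell genes, p53 targets, proliferation and cell type markers. Named from each list were up to 3 called genes of smallest p in the averaged p53 comparison (2 where none was called) and the most abundant, with the genes most correlated with Myc, Mxd3 and Mxd4. Alternatives were DESeq2 1.42.0 and its size factors, no filter, a log2 cutoff of 0.5, a replicate block, fits of 2 groups and leaving out each library. Leaving out libraries rich in Paneth cell markers was added after seeing the data. On simulated counts of the averaged p53 comparison (14435 genes), edgeR recovered 89.3% of changes of 1 on the log2 scale, with 10 false calls. Apart from the set changes, every simulated library was drawn from 1 mean profile, with a spread set by the abundance trend. It held no libraries like those rich in Paneth cell markers, so this recovery does not carry over to the real libraries.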

Additional observations from a re-analysis of the deposited data

How the results depend on the processing

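For p53 deletion averaged over both CBP genotypes, 1 member and 720 genes were called by edgeR on all 12 libraries. DESeq2 called 1291 genes, no filter on low counts left 0 members, and without the 4 libraries rich in Paneth cell markers there were 4 members (Max, Mxd1, Mxd3 and Mxi1) and 3802 genes, and without the 2 highest 3 members (Max, Mxd1 and Mxd3) and 3462 genes, both alternatives chosen after seeing the data. Leaving out each library in turn gave 0 to 2 members and 112 to 1992 genes, highest without CBPWTp53ΔIEC replicate 1 and, for genes, lowest without CBPWTp53-floxed replicate 3. In CBPWT crypts (0 members, 544 genes) DESeq2 gave 2 members and 1183 genes, the fit on the 2 groups alone 2 members and 959 genes, the 4-library and 2-library alternatives 4 and 3 members with 3226 and 1824 genes, and leaving out 1 library 0 to 3 members and 1 to 1040 genes. In CBPAA crypts (0 members, 4 genes) the counts were 78 genes with DESeq2, 11 with no filter, 1 with the 2 groups alone, 1 member and 1266 genes without the 4 libraries, 2 members and 1541 genes without the 2 libraries, and 0 to 1 member and 1 to 329 genes with 1 library left out, highest without CBPAAp53ΔIEC replicate 3. In the interaction none of the 9 members other than Myc was called under any alternative, and the 1 gene called became 32 with DESeq2, 2 with no filter, 35 and 0 without the 4 and the 2 libraries, and 0 to 1 with 1 library left out. The cause of these shifts was not tested.

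Replicate numbers are shared between groups but did not pair the mice: same-numbered libraries correlated from -0.52 to 0.54 in their deviations, and 2 of 12 libraries correlated best with their own number. With the replicate block the averaged comparison called 0 members and 367 genes, CBPWT crypts 32 genes, CBPAA crypts 2 genes and the interaction 0. Of 1280 alternative values of the 70 member log2 fold changes, 75 changed sign. The only called value among the 70, the averaged p53 change of Mxd3, kept its sign. The 70 include the differences of CBPAA over CBPWT, which were not tested. Mycn and Mxd3, with under 120 counts in every library, are the members that depth limits most.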
